A study of Mus musculus with 24 samples.

Results

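The overexpression experiment compared mouse hematopoietic stem cells (HSCs) labelled PUS10-OE with HSCs labelled Vector, 3 libraries each, which are 6 of the 24 libraries of the series. They were picked by their titles, and all 14834 genes that passed a filter on low counts were described. The series title places PUS10 in the aging of these cells. The other 18 libraries belong to experiments with controls of their own, in which miR139-KD HSCs were set against non-target control (NTC) HSCs (6 libraries each) and Pus10-KO against Pus10-WT HSCs (3 each). For Vector and PUS10-OE the labels give the cell type and these genotype names, with no strain, age, promoter or vector type, and neither the species of the introduced PUS10 sequence nor the time the cells carried it. All HSCs were sorted into lysis buffer and sequenced by Smart-seq2, which copies polyadenylated RNA into full-length cDNA and does not mark strand.

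PUS10 is a stand-alone pseudouridine synthase, an enzyme that turns uridine into its isomer pseudouridine within RNA, and it has also been linked to the handling of microRNA precursors. HSCs sit at the top of blood formation: they divide rarely, renew themselves and give rise to multipotent progenitors, from which the myeloid, lymphoid, erythroid and megakaryocyte lineages descend. CD34 and FLT3 mark progenitors below the most primitive mouse HSCs, and several megakaryocyte genes are already active in a subset of HSCs.

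Some interferon-responsive genes appear at several places in the results, so promoters that hold the letters of the interferon-stimulated response element are shown first. Promoter sequences (RefSeq, GRCm38.p6) covered 300 bases, 250 before the start of a gene and 50 after it, and were matched for 10078 of the tested genes. GAAANNGAA, searched on both strands, was found in 7.1% of all these promoters, in 12% (24 of 200) of the 200 genes with the lowest p among those higher in PUS10-OE, and in 5% (10 of 200) of the 200 on the lower side. These shares are descriptions without a test, and a match is not a binding site. Below are stretches that hold such a match ahead of the start, from genes higher in PUS10-OE: Tmsb4x (chrX:167209318-167209386, minus strand), an actin-monomer binding protein; Cd9 (chr6:125494849-125494917, minus strand), a tetraspanin; Fyb (chr15:6579613-6579681, plus strand), an adaptor of integrin signalling; Tgtp2 (chr11:49064244-49064312, minus strand), an interferon-induced GTPase; Ifi208 (chr1:173673577-173673645, plus strand), of the interferon-inducible p200 family; and Atp5g1 (chr11:96075801-96075869, minus strand), a subunit of ATP synthase. Each runs 5′ to 3′ on the strand of the gene, and the capitals mark the match, which in Tmsb4x lies on the opposite strand. The Fyb stretch lies ahead of a RefSeq start within the gene, which is annotated at chr15:6522853-6663313.
Tmsb4x: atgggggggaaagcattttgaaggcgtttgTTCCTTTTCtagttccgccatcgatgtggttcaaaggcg
Cd9: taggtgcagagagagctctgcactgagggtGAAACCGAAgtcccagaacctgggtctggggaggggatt
Fyb: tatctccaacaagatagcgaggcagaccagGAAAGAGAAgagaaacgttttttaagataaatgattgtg
Tgtp2: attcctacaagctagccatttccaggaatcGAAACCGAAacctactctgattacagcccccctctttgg
Ifi208: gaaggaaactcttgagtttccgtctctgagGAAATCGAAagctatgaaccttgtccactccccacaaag
Atp5g1: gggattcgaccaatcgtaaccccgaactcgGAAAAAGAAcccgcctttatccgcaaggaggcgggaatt

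The other motifs are described in the same way, with the share in all promoters, in the higher and in the lower set. The AP-1 motif TGANTCA was in 4.78% of all promoters, in 6% of the higher and 8% of the lower set. The ETS motif CCGGAAGT was in 8.8%, 8.5% and 5%, and the heat shock core GAANNTTC in 5.73%, 8.5% and 6%, in the same order. TATAAA was in 6.78% of all promoters and in 6.5% of either set. The YY1 motif AAGATGGCG was in 3.27%, 3.5% and 1%, which is 7 and 2 promoters of the 200 on each side, and the CCAAT box in 39.1%, 40% and 44.5%. The cyclic AMP response element TGACGTCA was in 3.19%, 5% and 3%, and the NRF1 motif GCGCATGCG in 3.71%, 4.5% and 2.5%. The E-box CACGTG was in 10.4%, 8.5% and 10%, and the GATA motif AGATAAG in 1.82%, 1.5% and 2%. The octamer ATTTGCAT was in 1.29%, 1.5% and 1.5%, and the NF-kB motif GGGACTTTC in 0.407%, 0% and 0.5%. In all, 13 motifs were searched.

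Each library held 34.2 to 47.3 M counts assigned to genes (M, mega) in Vector and 40.9 to 42.6 M in PUS10-OE. Libraries of 1 group differed by far more than counting error (chi-square per degree of freedom 31.3 to 92.3), and since no label ties them to separate animals or cultures, the spread behind each p-value may be technical in part. Markers of HSCs were present: the summed level of 17 HSC markers was 1105 to 1199 CPM (counts scaled to a common library size by TMM) in Vector and 1138 to 1288 in PUS10-OE. The B cell genes Cd79a, Ms4a1 and Pax5, the T cell genes Cd3e and Cd8a, the macrophage genes C1qa, C1qb and C1qc and the neutrophil genes S100a9 and Ngp had 0 counts in all 6 libraries. Other members of these lists were detected: those tested summed to 95.4 to 223 CPM for B and plasma cells (5 of 14, Cd79b among them at 34.5 to 74.8 CPM), 403 to 562 CPM for monocytes and macrophages (6 of 14), 69.7 to 103 CPM for T and NK cells (2 of 12) and 71.6 to 118 CPM for neutrophils (5 of 14) over the 6 libraries. PUS10-OE replicate 2 alone held 5565 counts of Gzmb and 179 of Fcer1a, genes of mast cells and basophils. Of 9 library measures, such as detected genes and the share of mitochondrial counts, 7 overlapped between the groups. Reads that fell on overlapping genes (6.53% to 6.60% of reads in Vector, 6.66% to 6.88% in PUS10-OE) and the share of the 100 most abundant genes (19.0% to 19.3% against 19.8% to 20.3%) were higher in every PUS10-OE library. For each of these the exact two-sided permutation p was 0.1, the smallest that 3 against 3 libraries allow, and 0.45 after adjustment over the 9 measures.

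Of 14834 genes, 0 (0%) passed edgeR's quasi-likelihood test at an adjusted p under 0.05, and the smallest adjusted p was 0.278. An unadjusted p under 0.05 was reached by 1215 genes (8.19%), 663 of them higher in PUS10-OE (4.47%) and 552 lower (3.72%). Without PUS10-OE replicate 3 these counts were 850 and 846. On the same counts DESeq2 called 250 genes, 124 higher and 126 lower, and limma-voom 0. A stricter filter of 10 CPM left 8321 genes, of which edgeR called 9. The 7 higher ones were Pus10, Malat1, Snrnp70, Ifitm3, Clu, Serpine2 and Mfsd2b, and the 2 lower ones St8sia4 and Egr1. The direction of the genes under 0.05 hinged on the scaling: 54.6% were higher with TMM, 35.7% when libraries were scaled by their size alone and 62.9% with upper-quartile scaling. Fold changes of the genes named hereafter are edgeR's, on the log2 scale, PUS10-OE over Vector. Where no test is named "higher" and "lower" describe these libraries only. Leading genes were taken from those with separate groups, so their separation was set by that choice.

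**Figure D1:**
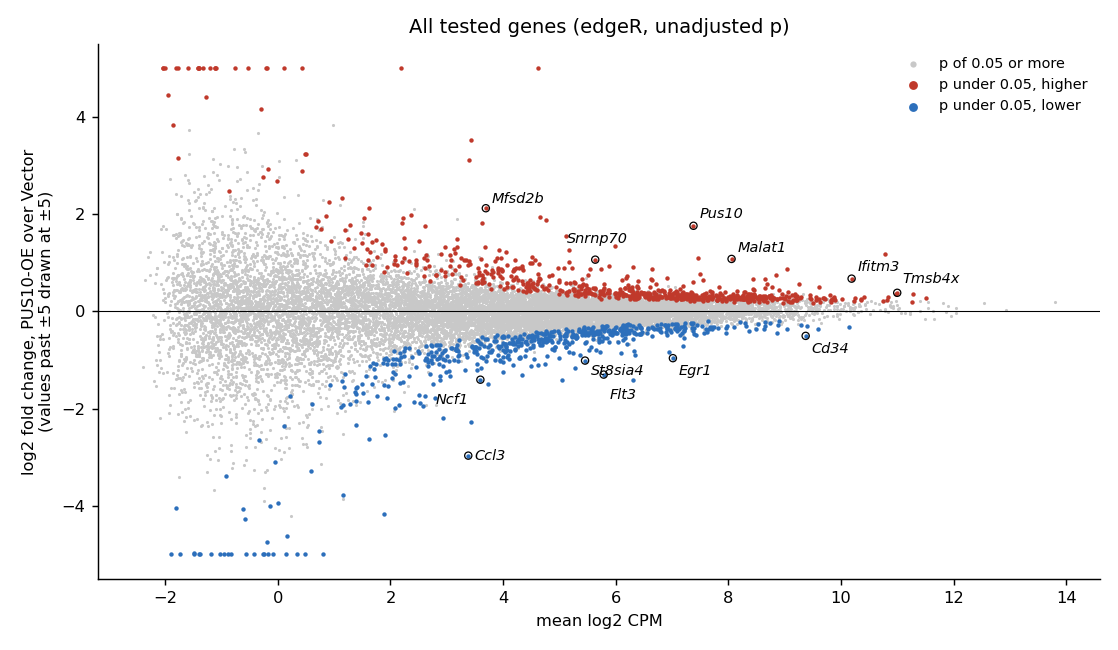
Log2 fold change (PUS10-OE over Vector) of the 14834 tested genes against their mean log2 CPM; red and blue points have an edgeR unadjusted p under 0.05. Of the coloured genes 663 lie above 0 and 552 below, and the higher ones sit further to the right, at greater abundance.

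The higher and lower genes differed in abundance, while their median folds were close at matched levels. Genes that were higher at an unadjusted p under 0.05 had a median mean level of 6.33 log2 CPM and a median fold of 1.32, and genes that were lower had 4.62 log2 CPM and a median fold of 1.55, beside 3.91 log2 CPM over all genes. Among genes at 7 log2 CPM or more, 259 were higher with a median fold of 1.22 and 63 lower with a median fold of 1.26. At 3 to 5 log2 CPM the median folds were 1.67 for 128 higher and 1.62 for 175 lower genes. The higher genes were also shorter, with a median exonic length of 3096 nt against 4354.5 nt for the lower and 3765 nt for all genes.

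Pus10 (ENSMUSG00000020280.12, chr11:23665674-23732876, plus strand, GRCm38) had the lowest p of all genes. It stood at 53.6, 92.8 and 81.5 CPM in Vector replicates 1, 2 and 3 and at 285, 246 and 242 CPM in PUS10-OE, a log2 fold change of 1.76 (SE 0.197). The groups did not overlap, and the lowest PUS10-OE library held more than any Vector library. DESeq2 gave it an adjusted p of 7.6e-15, while the smallest adjusted p of any gene in edgeR's main fit was 0.278.

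The next genes by p on the higher side were Malat1, Snrnp70 and Ifitm3. Malat1, an abundant noncoding RNA of nuclear speckles (chr19:5795690-5802672, minus strand), stood at 165, 162 and 187 CPM against 433, 337 and 315 (1.08, SE 0.135). Snrnp70, the U1 snRNP protein that recognises 5′ splice sites together with U1 RNA (chr7:45376453-45395742, minus strand), stood at 35.04, 33.9 and 27.6 CPM against 66.0, 69.7 and 66.2 (1.06, SE 0.138). Ifitm3, which blocks virus entry at membranes (chr7:141009586-141010770, minus strand), stood at 891, 840 and 966 CPM against 1321, 1406 and 1574 (0.67, SE 0.0940). None of these groups overlapped. PUS10-OE replicate 1 was the highest library for Malat1 and the lowest of its group for Ifitm3, so no single library led both.

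Atic, the bifunctional enzyme of the last steps of purine synthesis (chr1:71557150-71579631, plus strand), stood at 30.8, 36.1 and 31.4 CPM against 60.5, 58.7 and 61.7 (0.88, SE 0.129). Tpr, the filament protein of the nuclear basket at the pore (chr1:150392838-150449935, plus strand), stood at 159, 138 and 141 CPM against 221, 216 and 247 (0.64, SE 0.101). Pon3, a lactonase with antioxidant activity (chr6:5220852-5256286, minus strand), stood at 65.0, 65.3 and 68.8 CPM against 106, 98.5 and 102 (0.62, SE 0.0999). For these 3 genes libraries of a group lay close together and the groups were clearly apart. DESeq2 gave Atic an adjusted p of 7.7e-07, Tpr of 1.6e-05 and Pon3 of 1.0e-05. In edgeR's main fit none of them passed, with 0.278 the smallest adjusted p of any gene.

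Further genes near the top of the higher side were Nhp2, Cenpf, Tmsb4x, Cd9, Ddx6 and Zc3h13. Nhp2, a core protein of the box H/ACA particles that guide pseudouridylation, stood at 395, 414 and 415 CPM against 543, 578 and 539 (0.44, SE 0.0757). Cenpf, a kinetochore protein of dividing cells, stood at 53.4, 57.0 and 56.2 CPM against 102, 86.0 and 86.2 (0.72, SE 0.118). Tmsb4x stood at 1752, 1729 and 1844 CPM against 2384, 2267 and 2290 (0.38, SE 0.0683), the smallest difference among them at the highest level. All of these groups were separate. Cd9 stood at 368, 354 and 369 CPM against 563, 498 and 474 (0.49, SE 0.0890). Ddx6, an RNA helicase of P-bodies and mRNA repression, stood at 19.7, 25.6 and 26.2 CPM against 46.4, 44.0 and 41.9 (0.89, SE 0.164). Zc3h13, a component of the complex that writes N6-methyladenosine, stood at 14.0, 12.8 and 13.8 CPM against 26.8, 24.4 and 24.4 (0.89, SE 0.171).

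Larger folds came with lower levels and more spread. Mfsd2b, a sphingosine-1-phosphate transporter of platelets and red cells, stood at 4.28, 3.97 and 6.20 CPM against 23.4, 26.9 and 12.6 (2.12, SE 0.344). Clu, the secreted chaperone clusterin, stood at 18.4, 14.4 and 20.3 CPM against 67.9, 36.1 and 51.7 (1.55, SE 0.255), and Serpine2, a serine protease inhibitor, at 44.8, 29.5 and 32.8 CPM against 111, 64.3 and 98.1 (1.35, SE 0.239). The groups were separate in each, with more spread among the PUS10-OE libraries than among the Vector libraries. Cavin2, a caveola coat protein, stood at 1.47, 0.645 and 3.03 CPM against 42.5, 5.56 and 11.01 (3.53, SE 0.865). Pls1, an actin-bundling plastin, stood at 0.604, 4.78 and 1.10 CPM against 28.4, 19.2 and 8.89 (3.11, SE 0.786). Ehd3, an endocytic recycling ATPase, stood at 14.0, 7.95 and 13.1 CPM against 73.0, 23.9 and 31.3 (1.87, SE 0.438). In Cavin2, Pls1 and Ehd3, PUS10-OE replicate 1 was the highest library.

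On the lower side the leading genes were Cd34, St8sia4, Zfp36, Txnip, Tor4a and Egr1. Cd34 (chr1:194938819-194961279, plus strand) stood at 763, 795 and 777 CPM in Vector and at 532, 550 and 565 CPM in PUS10-OE (-0.50, SE 0.0718). St8sia4, which builds polysialic acid on surface proteins (chr1:95587682-95667571, minus strand), stood at 55.6, 55.7 and 64.6 CPM against 32.3, 26.2 and 28.7 (-1.01, SE 0.145). Zfp36, which binds AU-rich elements and speeds the decay of cytokine mRNAs (chr7:28376784-28380253, minus strand), stood at 69.4, 70.2 and 62.7 CPM against 36.0, 36.7 and 41.0 (-0.83, SE 0.124). In all 3 genes each PUS10-OE library was below each Vector library. Txnip, an inhibitor of thioredoxin and of glucose uptake (chr3:96557957-96561883, plus strand), stood at 170, 184 and 191 CPM against 98.3, 123 and 113 (-0.70, SE 0.113). Tor4a, of the torsin ATPase family (chr2:25192966-25196886, minus strand), stood at 45.4, 44.6 and 48.0 CPM against 24.2, 26.2 and 27.02 (-0.83, SE 0.136). Egr1, an immediate early transcription factor, stood at 195, 162 and 156 CPM against 111, 78.6 and 73.6 (-0.96, SE 0.176). DESeq2's adjusted p was 7.1e-09 for Cd34, 3.5e-07 for St8sia4 and 5.2e-07 for Zfp36. It was 5.8e-06 for Txnip, 2.7e-06 for Tor4a and 6.6e-05 for Egr1. In edgeR's main fit none of these genes passed, and the adjusted p of Zfp36 was 0.278.

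**Figure D2:**
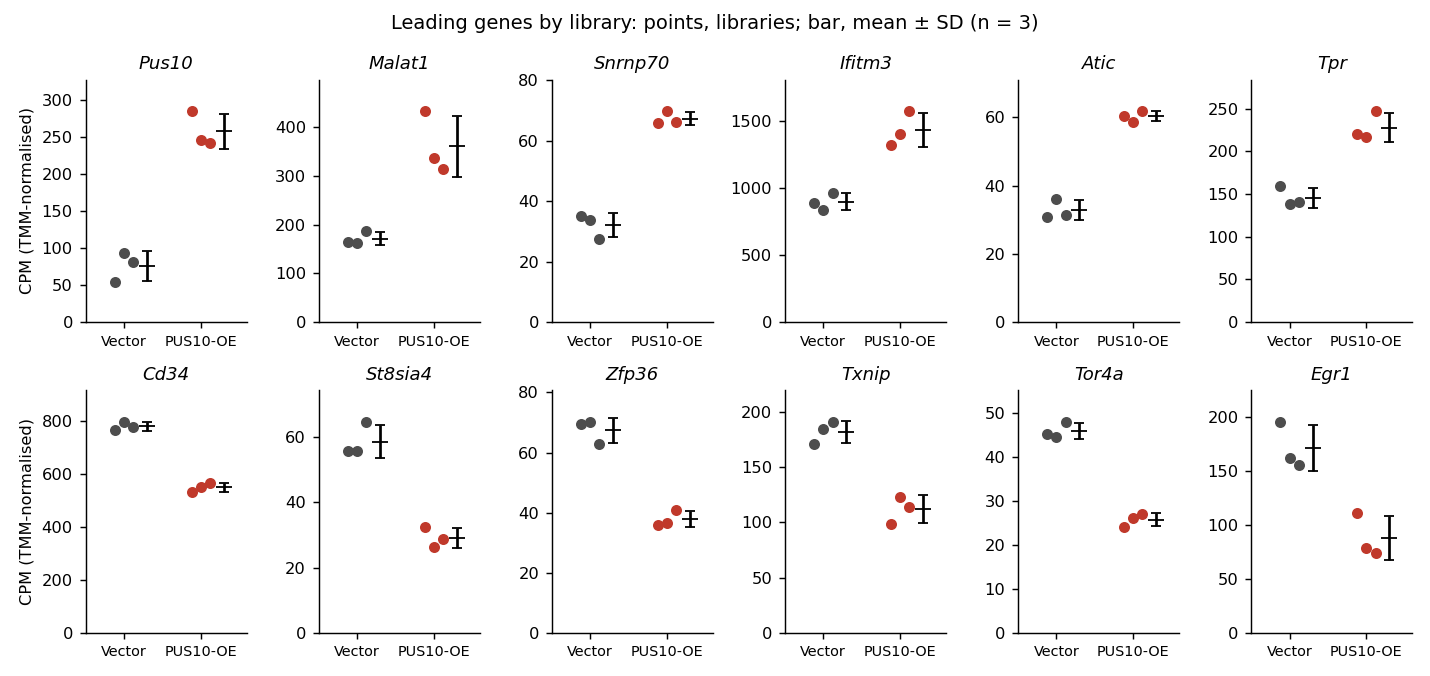
TMM-normalised CPM of the 6 leading genes in each direction; points are libraries in the order of replicates 1 to 3, and the bar beside them is the mean ± SD (n = 3). In all 12 genes the groups do not overlap, which the rule that picked leading genes required. Pus10 lies at 53.6 to 92.8 CPM in Vector and 242 to 285 CPM in PUS10-OE.

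Other genes of the lower side had low p, wide gaps in rank or large folds. Fut7, the fucosyltransferase that makes selectin ligands, stood at 36.6, 27.4 and 28.2 CPM against 11.1, 14.8 and 16.3 (-1.13, SE 0.219). Ncf1, a cytosolic subunit of the phagocyte NADPH oxidase, stood at 15.6, 19.4 and 17.5 CPM against 5.54, 5.19 and 9.09 (-1.41, SE 0.280). Runx2, a transcription factor best known from bone, stood at 55.7, 42.6 and 48.0 CPM against 28.5, 22.8 and 29.0 (-0.86, SE 0.169). These groups did not overlap. Ccl3, a chemokine that attracts myeloid cells, stood at 11.9, 28.1 and 15.2 CPM against 1.17, 1.24 and 4.65 (-2.97, SE 0.623). Flt3 stood at 71.7, 79.0 and 84.8 CPM against 33.9, 15.4 and 46.3 (-1.30, SE 0.345), and Trib3, a stress-induced pseudokinase, at 28.7, 12.8 and 17.2 CPM against 6.22, 5.07 and 9.58 (-1.49, SE 0.373). Flt3 was lowest in PUS10-OE replicate 2, and the groups did not overlap.

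The groups were also compared without a model of the spread. Among the possible orderings of 3 against 3 libraries, a share of 0.1 separates the groups. About that share of genes would be separate if the labels carried no difference. When CPM alone was compared, every library of one group lay above every library of the other in 2235 genes (15.1%), 1233 with PUS10-OE higher (8.31%) and 1002 with PUS10-OE lower (6.75%). This balance turned with the scaling, to 907 higher and 1318 lower when libraries were scaled by their size alone. When each gene was instead ranked within its own library, which needs no scaling factor, the groups were separate in 2180 genes (14.7%), 1207 higher (8.14%) and 973 lower (6.56%). Both views separated 1920 genes, which were 85.9% of the first set and 88.1% of the second, and 0 genes were separate in opposite directions. Because the same counts enter both views, this overlap is no separate evidence. Of the 1215 genes with an unadjusted p under 0.05, 1112 were separate in CPM, 1025 in both views and 90 in neither.

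Most genes with the widest gaps in rank also had a low p. The rank counts from 1, the most abundant of the 14834 genes, and the gap is the distance between the nearest libraries of the 2 groups. Alox5, the lipoxygenase that starts leukotriene synthesis, had the widest gap among the genes with a mean of at least 3 log2 CPM: it ranked 7599.5, 10544.5 and 7513 in Vector and 4491.5, 5372 and 4364 in PUS10-OE, a gap of 2141 ranks, at 14.0, 3.04 and 14.2 CPM against 43.8, 31.3 and 44.9. Vector replicate 2 was the lowest library by far. Snrnp70 ranked 5128, 5207.5 and 5806 against 3408, 3184 and 3311 (gap 1720), and Podxl, a sialomucin of HSCs and vessels, 6292, 7427.5 and 5950 against 4293.5, 3946 and 3932.5 (gap 1656.5). Pus10 itself ranked 3945.5, 2526 and 2859.5 against 759, 883 and 862 (gap 1643). Podxl stood at 22.7, 14.7 and 26.2 CPM against 47.3, 52.2 and 52.9 (1.26, SE 0.221). On the lower side Ccl3 had the widest gap, with ranks 7933.5, 5726 and 7368 against 12015.5, 12028 and 9873 (gap 1939.5). St8sia4 followed with 3858.5, 3853.5 and 3465 against 5282.5, 5865.5 and 5571 (gap 1424), and then Fut7 (gap 1328.5), Tor4a (gap 1275) and Cd33, an inhibitory myeloid lectin (gap 1200.5).

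Few genes were seen in 1 group only. At least 10 counts in each PUS10-OE library and 0 in each Vector library were found for 19 genes, and the opposite pattern for 15. The antisense RNA Il1bos had 70, 85 and 96 counts in PUS10-OE, and without strand its reads cannot be told from those of a gene on the other strand. Ifi208 had 126, 45 and 32 counts, and Nt5e, the ecto-enzyme CD73 that makes adenosine, had 144, 23 and 34. Counts this low spread widely between the libraries of the group. In Vector alone, Dntt, the polymerase that adds bases at antigen-receptor junctions in early lymphoid cells, had 213, 46 and 53 counts, Olfm4, a secreted glycoprotein of neutrophils and gut stem cells, had 43, 42 and 287, and Fcer2a, the low-affinity IgE receptor, had 138, 124 and 37. Rgs11, a regulator of G-protein signalling, had 41, 97 and 80. Trim21 and Clca3a1, chosen after their values were seen, came close to this pattern on the higher side. Trim21, a cytosolic antibody receptor and ubiquitin ligase, had 0, 1 and 0 counts in Vector against 56, 26 and 75, and Clca3a1, a calcium-activated chloride channel regulator, had 0, 0 and 24 against 487, 228 and 357.

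Genes were then grouped by the letters of their symbols, with no list chosen: 238 families of at least 6 tested members held 3858 genes. The median of all genes tested was 0.01. The highest medians belonged to Ifi (0.30, 6 genes), Ndufa (0.27, 13 genes), Ndufb (0.25, 10 genes), Cox (0.24, 21 genes) and Psma (0.24, 8 genes). Pdcd (9 genes) and Rpl (47 genes) followed at 0.23, and Rps (41 genes) ranked 15 at 0.19. Alkbh, Rpp, Psmb, Ndufs, Hist, Sap and Mrpl lay between Rpl and Rps. Against 4.47% higher and 3.72% lower over all genes, the count at an unadjusted p under 0.05 was 7 higher and 0 lower in Ndufa, 3 and 0 in Ndufb, 6 and 0 in Cox, 5 and 0 in Psma, 15 and 0 in Rpl, and 10 and 1 in Rps. The families with counts given here belong to core machines of the cell. Ndufa and Ndufb encode subunits of respiratory complex I, and Cox mostly subunits and assembly factors of complex IV. Psma encodes the outer rings of the 20S proteasome, and Rpl and Rps the ribosome. Psma5 stood at 481, 494 and 510 CPM against 628, 637 and 622 (0.34, SE 0.0719), and Psma2 at 595, 536 and 563 CPM against 695, 716 and 677 (0.30, SE 0.0771). Without PUS10-OE replicate 3 the medians of Ndufa, Ndufb and Cox were 0.15, 0.14 and 0.14, and without PUS10-OE replicate 2 those of Rpl and Rps were 0.15 and 0.11.

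Of the 6 Ifi genes, 2 were higher and 0 lower at an unadjusted p under 0.05, beside 4.47% and 3.72% over all genes. Ifi44 stood at 38.6, 32.4 and 42.3 CPM against 91.1, 60.4 and 56.8 (0.88, SE 0.208), and Ifi27l2a at 6.48, 4.87 and 4.07 CPM against 9.84, 10.9 and 13.8 (1.16, SE 0.286). Oas2, a sensor of double-stranded RNA outside this family, stood at 8.19, 5.70 and 2.39 CPM against 21.1, 11.5 and 25.0 (1.82, SE 0.475). All 3 groups were separate. The Ifi median was 0.17 without PUS10-OE replicate 3, and Ifi203 was negative (-0.14). Not all related families were higher. At an unadjusted p under 0.05, Gbp genes had 0 of 7 higher and 0 lower (median -0.04). Irf genes had 1 of 10 higher and 0 lower (median -0.15).

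The lowest medians were those of Ccl chemokines (-0.64, 6 genes, 3 lower) and Tnfrsf receptors (-0.36, 11 genes, 3 lower), with 0 higher in either. Pip, Xrcc, Nek, Cog and Rgs came next, with medians from -0.29 to -0.27, and then Mcm with -0.26. Of the 10 Mcm genes 3 were lower and 0 higher, beside 3.72% and 4.47% over all genes. Ccl4 stood at 39.8, 6.76 and 6.93 CPM against 3.52, 3.96 and 3.61 (-2.27, SE 0.696), and Ccl9 at 56.9, 39.1 and 29.4 CPM against 25.8, 13.8 and 24.8 (-0.96, SE 0.314). Vector replicate 1 was far above the other libraries for Ccl4. Without it the Ccl median was -0.42. Tnfrsf26 stood at 86.2, 70.6 and 97.7 CPM against 58.2, 48.9 and 67.8 (-0.54, SE 0.169), and Tnfrsf9, the costimulatory receptor 4-1BB, at 4.04, 15.8 and 6.00 CPM against 2.79, 2.40 and 2.66 (-1.72, SE 0.516). Mcm7, a subunit of the replicative helicase, stood at 303, 320 and 296 CPM against 238, 228 and 266 (-0.33, SE 0.0917), and 9 of the 10 Mcm genes were negative. Mcm3ap was the positive one (0.29). Without PUS10-OE replicate 2 the Mcm median was -0.14. Other genes of replication were not lower as families, with medians of 0.02 for Orc (6 genes) and 0.06 for Gins (4 genes).

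The Zfp genes, most of which encode zinc-finger proteins, were the largest family, with 304 tested members and a median of -0.09. Of them 110 (36.2%) were positive, and 19 were lower and 6 higher at an unadjusted p under 0.05. These were 6.25% and 1.97% of the family, beside 3.72% and 4.47% over all genes. Besides Zfp36, the lower ones included Zfp1 at 28.2, 22.5 and 20.98 CPM against 13.9, 16.3 and 13.7 (-0.71, SE 0.197) and Zfp583 at 14.1, 13.6 and 9.23 CPM against 5.32, 7.27 and 5.63 (-1.02, SE 0.276). The higher ones included Zfp326, a splicing regulator, at 8.66, 10.6 and 7.42 CPM against 19.5, 19.1 and 25.5 (1.26, SE 0.233) and Zfp521, a regulator of progenitor cells, at 4.41, 3.81 and 7.68 CPM against 15.1, 10.49 and 11.2 (1.21, SE 0.338). The Zfp genes named here other than Zfp36 were chosen after their values were seen. The family had a minority of positive members, while single members lay on both sides.

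Curated lists bring together machines whose symbols spread over several stems. They share genes with the symbol families, as the mitochondrial ribosomal list does with Mrpl (48 tested) and Mrps (29 tested), and are no separate evidence. Over all genes 4.47% were higher and 3.72% lower at an unadjusted p under 0.05. Of 77 mitochondrial ribosomal protein genes, 19 were higher and 0 lower at an unadjusted p under 0.05, 68 were positive, and the median was 0.18. Of 44 proteasome subunits, 9 were higher (20.5%) and 0 lower (median 0.17). Of 26 mitochondrial import genes 6 were higher and 0 lower (median 0.16), and of 42 subunits of RNA polymerase II and Mediator 8 were higher and 0 lower (median 0.14). Translation initiation and elongation factors had 5 of 44 higher and 0 lower (median 0.09, and 0.05 without PUS10-OE replicate 2). Eif4g1, the scaffold of cap-dependent initiation, stood at 20.2, 22.3 and 20.4 CPM against 28.4, 33.6 and 42.7 (0.74, SE 0.191).

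RNA-processing lists split. Of 36 spliceosomal Sm, LSm, U1 and U2 proteins 10 were higher (27.8%) and 0 lower (median 0.13). Snrpg, an Sm ring protein, stood at 304, 301 and 289 CPM against 372, 414 and 433 (0.45, SE 0.0874), and its ring partner Snrpd3 at 106 CPM in each Vector library against 153, 140 and 138 (0.44, SE 0.0925). SR proteins and hnRNPs, which set splice-site choice, had 2 of 38 higher (5.3%) and 1 lower (2.6%), near the shares over all genes (median -0.01). The mRNA decay list, to which Ddx6 and Zfp36 belong, had 4 of 45 higher (8.9%) and 2 lower (4.4%). The list of m6A and other mRNA marks, with Zc3h13, had 1 of 20 higher (5%) and 0 lower. Nuclear pore genes had 2 of 28 higher (7.1%), among them Tpr, and 0 lower. Their median of 0.11 was -0.01 without PUS10-OE replicate 1.

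In the metabolic lists the directions were mixed, beside 4.47% of all genes higher and 3.72% lower at an unadjusted p under 0.05. Serine and one-carbon metabolism had 4 of 20 lower and 0 higher (median -0.15, and -0.09 without Vector replicate 2). Shmt1, which splits serine to glycine in the cytosol, stood at 154, 163 and 138 CPM against 131, 112 and 116 (-0.34, SE 0.109), and Mtr, methionine synthase, at 25.0, 37.6 and 28.0 CPM against 18.0, 18.6 and 22.1 (-0.63, SE 0.206). The others were Phgdh and Mthfd1l. Purine synthesis had 2 of 17 higher and 0 lower: beside Atic this was the salvage enzyme Aprt, at 192, 192 and 183 CPM against 231, 293 and 274 (0.49, SE 0.106). The list of glutathione and peroxiredoxin genes had 5 of 31 higher and 2 lower. Gpx8, a peroxidase of the endoplasmic reticulum, stood at 1.84, 2.68 and 1.67 CPM against 11.8, 5.51 and 7.24 (1.98, SE 0.402), while catalase (Cat) stood at 228, 234 and 237 CPM against 185, 188 and 185 (-0.33, SE 0.0789). The tricarboxylic acid cycle had 1 of 27 higher and 3 lower.

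In the signalling lists few members had an unadjusted p under 0.05, beside 4.47% higher and 3.72% lower over all genes. Of 29 Notch and Wnt genes 23 were negative (median -0.33), with 2 lower and 1 higher. Maml2, a coactivator of Notch, stood at 67.5, 58.9 and 65.2 CPM against 46.4, 34.2 and 30.2 (-0.79, SE 0.179), and Tcf7l2, a transcription factor of Wnt signalling, at 35.5, 26.3 and 38.2 CPM against 20.2, 20.5 and 25.7 (-0.59, SE 0.201). Dvl3 was the higher member, at 73.5, 75.9 and 70.0 CPM against 84.5, 92.3 and 87.5 (0.27, SE 0.103). With PUS10-OE replicate 1 left out the median was -0.21, and with replicate 3 of that group left out it was -0.50. Of 20 circadian clock genes 3 were lower and 0 higher (median -0.21). Bhlhe40, a repressor that feeds back on the clock, stood at 44.3, 50.4 and 45.6 CPM against 24.9, 31.2 and 39.4 (-0.55, SE 0.188). The other 2 were Ciart and Cry1, and the median was -0.46 without PUS10-OE replicate 3. MAPK phosphatases and Sprouty genes had 2 of 21 lower and 1 higher (median -0.06). Dusp6, which switches off ERK, stood at 172, 157 and 147 CPM against 66.0, 94.8 and 107 (-0.83, SE 0.177).

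JAK-STAT and SOCS genes had 3 of 28 lower and 2 higher, beside 3.72% and 4.47% over all genes. Stat5b, which carries cytokine signals to the nucleus, stood at 42.8, 47.5 and 42.5 CPM against 30.1, 28.5 and 33.6 (-0.53, SE 0.141). Pias3, an inhibitor of STAT3, stood at 19.3, 21.6 and 21.01 CPM against 13.4, 9.13 and 7.92 (-1.02, SE 0.246), and Ptpn11, the phosphatase SHP2, at 9.21, 9.71 and 9.32 CPM against 24.3, 21.7 and 11.9 (1.04, SE 0.289). An activator, Stat5b, and an inhibitor, Pias3, were thus both on the lower side.

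Markers of neighbouring cell types differed alongside these genes. Of 11 multipotent progenitor markers 7 were lower and 0 higher at an unadjusted p under 0.05 (median -0.50), beside 3.72% and 4.47% over all genes. The marker lists were set with earlier results of these data known, so their counts cannot serve as a test of cell types. The summed level of the progenitor markers was 1399 to 1454 CPM in Vector and 1019 to 1037 CPM in PUS10-OE. Most of that sum is Cd34, and without PUS10-OE replicate 3 the list's median was -0.86. Of 13 megakaryocyte markers 6 were higher, 0 lower and all positive (median 0.96), with a summed level of 359 to 426 CPM against 522 to 742 CPM. Pf4 stood at 126, 93.6 and 119 CPM against 341, 224 and 157 (1.09, SE 0.263), while Gp1bb and Gp6 had at most 1 count in any library. Neutrophil markers summed to 87.6 to 118 CPM against 71.6 to 85.2 CPM with 5 of 14 tested. Erythroid markers summed to 1730 to 2039 CPM against 2079 to 2463 CPM with 8 of 14 tested, and Hba-a2 and Slc4a1 were at 0. In bulk libraries fewer cells of a type and less RNA per cell cannot be told apart, and the part of these cell types in the genes above was not tested.

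Surface antigens with a CD number, a grouping made after the values were seen, had 9 of 42 lower and 2 higher at an unadjusted p under 0.05 (median -0.20), beside 3.72% and 4.47% over all genes, and since the grouping followed the values nothing is read from that count. Cd33 stood at 30.7, 23.5 and 22.4 CPM against 12.9, 12.9 and 13.5 (-0.96, SE 0.196). Cd69, a lymphocyte activation antigen, stood at 101, 188 and 53.8 CPM against 52.4, 32.5 and 44.3 (-1.41, SE 0.412), with the groups nearly touching. The other lower antigens were Cd34, Cd27, Cd37, Cd86, Cd151, Cd180 and Cd244a, and the higher ones Cd9 and Cd99l2. Without Vector replicate 3 the median was -0.09.

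**Figure D3:**
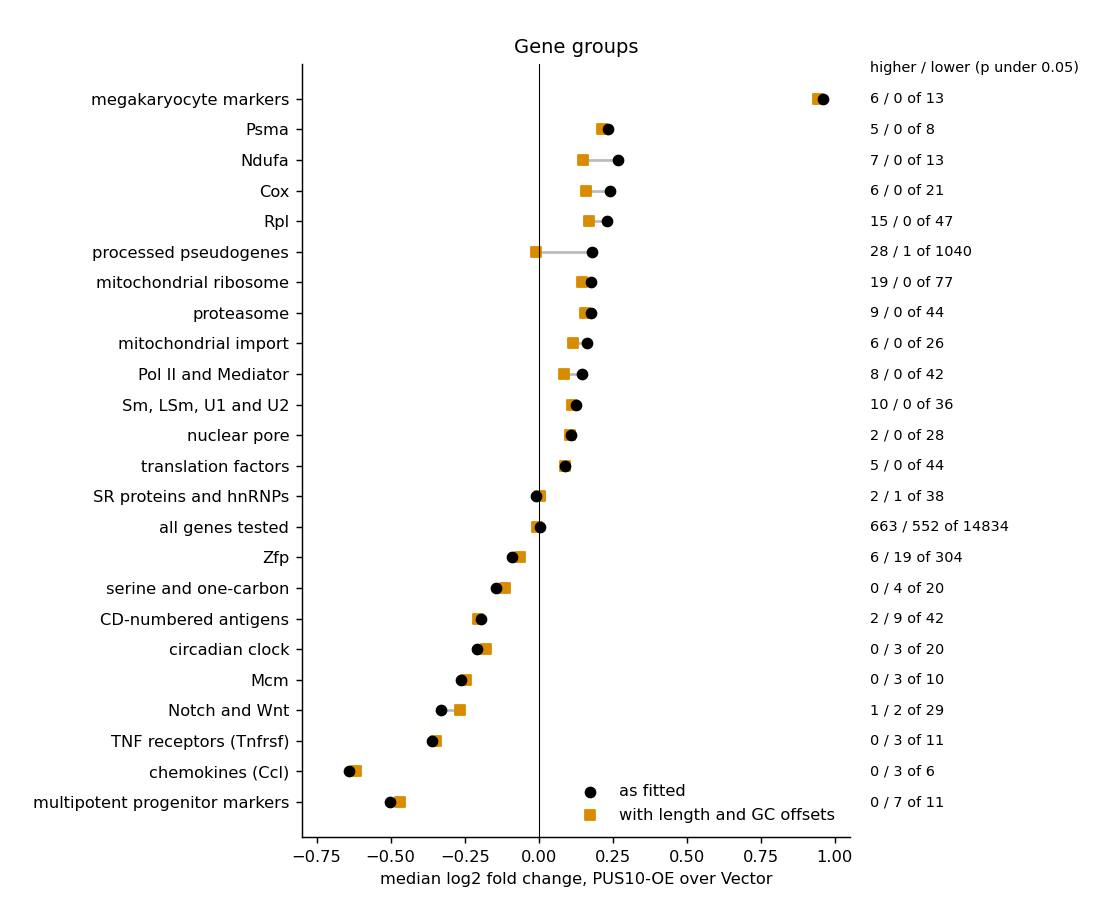
Median log2 fold change (PUS10-OE over Vector) of families and lists, as fitted (black) and after removing each library's trend over gene length and GC content (orange); the numbers at the right are the genes higher and lower at an unadjusted p under 0.05 of those tested. Megakaryocyte markers lie at 0.96 and multipotent progenitor markers at -0.50, and processed pseudogenes move from 0.18 to -0.01 with the correction.

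Many of the genes higher in PUS10-OE were short, and length moved with the result. Over the 8850 genes with a mean of at least 3 log2 CPM, cut into 10 equal bins by exonic length, the shortest bin (67 to 1609 nt) had a median of 0.17, with 76.4% positive and 164 higher against 17 lower at an unadjusted p under 0.05. The other 9 bins had medians between -0.04 and 0.04. Set against the mean of the 6 libraries, the median gene of the shortest bin stood at -0.06, -0.10 and -0.07 (log2) in Vector and at 0.01, 0.09 and 0.14 in PUS10-OE. The groups were separate, and PUS10-OE replicate 3 was highest. After offsets that take out each library's trend over length and GC content, the median of the shortest bin was 0.03, with 62 higher and 36 lower. That correction was chosen after seeing the data. It also removes a difference that follows length for any other reason.

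**Figure D4:**
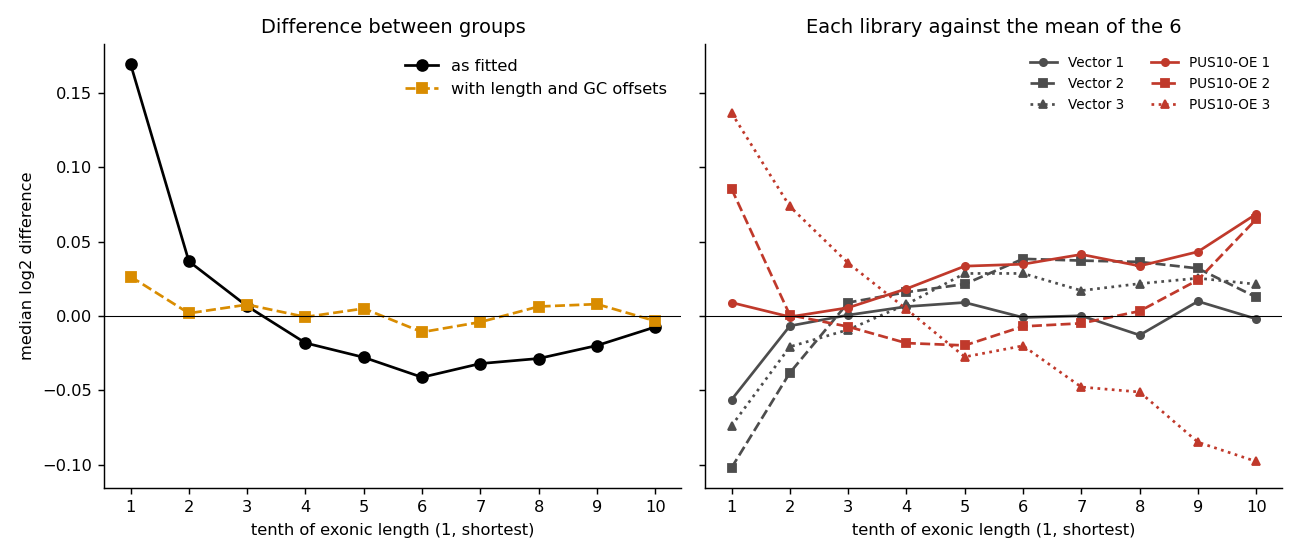
Median log2 difference in 10 bins of exonic length: left, PUS10-OE over Vector as fitted and with length and GC offsets; right, each library against the mean of the 6. The shortest bin stands at 0.17 as fitted and 0.03 with offsets, and the 3 PUS10-OE libraries lie above the 3 Vector libraries there.

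The offsets lowered the medians of the named machines and of the other short genes alike. Within the shortest bin, 148 genes of the ribosome, the respiratory chain, the proteasome, small nuclear ribonucleoproteins and histones had a median of 0.26 as fitted and 0.11 with offsets, and the other 737 had 0.14 and 0.01. Of the 148, 61 were higher at an unadjusted p under 0.05 as fitted and 26 with offsets, and of the 737, 103 and 36. By group, the median with offsets was 0.22 for Psma, 0.17 for Rpl, 0.15 for Rps, 0.15 for Ndufa, 0.16 for Cox, 0.15 for mitochondrial ribosomal proteins, 0.15 for the proteasome list and 0.11 for the spliceosomal list. Processed pseudogenes, copies that share reads with their parent genes and whose counts are therefore uncertain, had a median of 0.18 over 1040 genes, and -0.01 with offsets. PUS10-OE libraries also differed among themselves in GC content: from the lowest to the highest of 10 bins the median deviation went down by 0.20 and 0.19 (log2) in replicates 1 and 2 and up by 0.43 in replicate 3, while in Vector it moved by 0.05, -0.02 and -0.07. With the offsets edgeR again called 0 genes.

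The genes that led here were then looked up in the other experiments, which share no library with this one. The 100 genes with the lowest p on the higher side had a median of 0.13 in miR139-KD against NTC, where 90 were tested, and the 100 on the lower side had -0.37, where 83 were tested. The median of all genes was 0.01 there. At an edgeR adjusted p under 0.05, 13 of the 90 were higher and 0 lower, beside 1.41% and 1.31% over all 13295 genes, and of the 83, 1 was higher and 7 lower. Cd9 was at 1.38 there (edgeR adjusted p = 0.00274), Pf4 at 4.31 (0.00179), Cavin2 at 2.94 (0.00194), Ehd3 at 2.12 (0.0304) and Slamf1, the HSC receptor CD150, at 1.36 (0.0325). The others included Fyb, Tmsb4x, Ptgs1, Gng11, Tuba8, Reep2 and Slc14a1. On the lower side Flt3 was at -1.80 (edgeR adjusted p = 3.5e-04), Cd34 at -1.33 (0.00264), Arid5a, an RNA-binding stabiliser of cytokine mRNAs, at -1.49 (0.00237), Emb at -1.36 (0.0112) and St8sia4 at -1.07 (0.0325), with Dntt and Wfdc17. Rbm22, a spliceosome component, was the gene in the opposite direction, at -0.49 here and 0.73 there (0.0368). Pus10 itself was at -0.12 in miR139-KD (edgeR adjusted p = 0.846), and Malat1, Snrnp70 and Ifitm3 did not pass there.

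In the libraries labelled Pus10-KO against Pus10-WT the same genes lay near 0. The 100 higher genes had a median of -0.03 (94 tested, 0 called) and the 100 lower genes of 0.02 (87 tested, 1 called), beside -0.01 over all genes. In that comparison 0.0136% of 14657 genes were called higher and 0.0478% lower. The 1 gene called was Tsc22d3, a glucocorticoid-induced leucine zipper protein, at -0.62 (SE 0.154) in PUS10-OE and at 1.18 there (edgeR adjusted p = 0.0238). Pus10 was not lower in the libraries labelled Pus10-KO, at 0.31 (SE 0.279, edgeR adjusted p = 0.951), so their direction rests on the label.

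**Figure D5:**
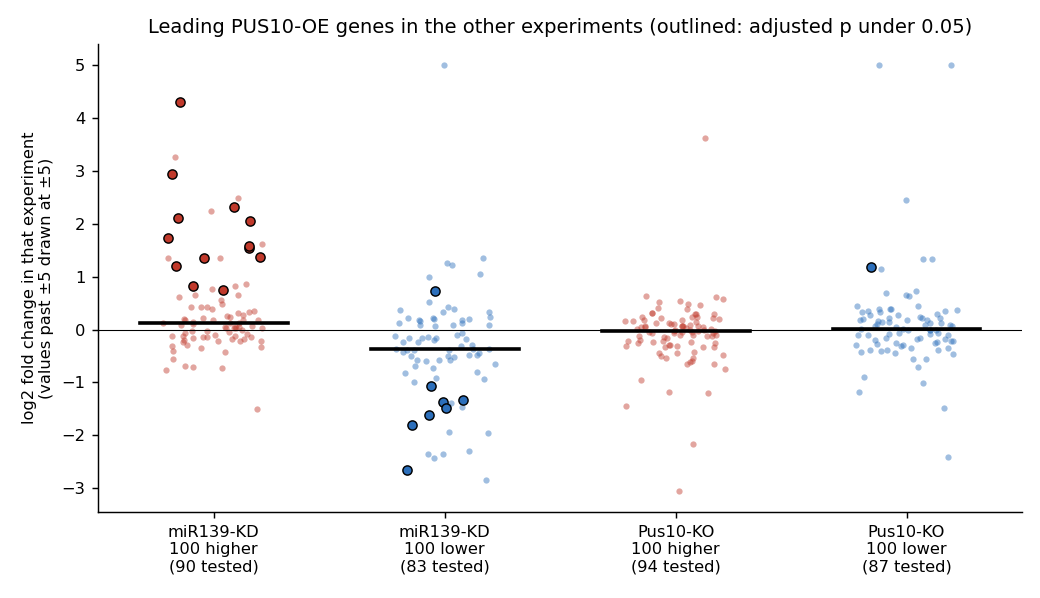
Log2 fold change, in the miR139-KD and Pus10-KO experiments, of the 100 genes with the lowest p on each side of PUS10-OE against Vector; bars are medians and outlined points have an edgeR adjusted p under 0.05 there. The medians are 0.13 and -0.37 in miR139-KD and -0.03 and 0.02 in the libraries labelled Pus10-KO.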

How the data were processed

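The libraries were made by Smart-seq2 from sorted mouse HSCs, per the labels' protocols. Each deposited file holds raw counts of reads, as whole numbers, for 55487 Ensembl IDs and 5 summary entries, and the latter were left out. Per the submitters' processing notes, the authors used HISAT2 2.1.0 on mm10, then HTSeq 0.11.2, and also DESeq2. The annotation release was not given in the sources used here. GENCODE M21 (GRCm38) named 55094 IDs with their version and 300 without it, and 93 stayed unmatched.

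The 6 libraries were fitted with edgeR 4.0.16 (filterByExpr, TMM, robust two-sided quasi-likelihood F test) in R 4.3.3, with Benjamini-Hochberg adjustment over all genes, after the steps had been tested on simulated data. CPM was computed from the deposited counts. Reads carry no molecular identifiers, so depth gives counting error only. The alternatives used DESeq2 1.42.0, limma 3.58.1 (voom), other scalings and filters, a replicate block, all 6 groups in 1 fit, each library left out and length and GC offsets.

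Genes were named by rule: Pus10, the lowest p with separate groups per direction, the largest folds, genes at 0 in 1 group, leading members of each list and family, the widest rank gaps, and genes called with a filter of 10 CPM. Families needed at least 6 tested protein-coding members, and medians, families and lists were described without a set test. The lists and members were chosen with earlier results of these data known.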

Additional observations from a re-analysis of the deposited data

How the results depend on the processing

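The count of 0 genes at an adjusted p under 0.05 also came from edgeR with RLE, upper-quartile or size-only scaling, without a filter, without robust fitting or with length and GC offsets, from limma-voom, and with each library left out (0 to 0 genes). It was 9 with a filter of 10 CPM, 5 in the fit of all 6 groups and 250 in DESeq2. At an unadjusted p under 0.05, the higher genes (663) numbered 427 with size-only scaling and 517 to 850 with a library left out. The lower genes (552) numbered 270 in the fit of all 6 groups, 902 in DESeq2 and 436 to 846 with a library left out, the most without PUS10-OE replicate 3. Separate groups in CPM (1233 higher, 1002 lower) numbered 907 and 1318 with size-only scaling, and the lower ones numbered 613 at 10 CPM or more, and in rank (973) 614, since fewer genes were tested. With a library left out, separation is easier: 1795 to 2408 genes were higher and 1671 to 1987 lower in CPM, and 1824 to 2294 higher and 1607 to 2040 lower in rank. Replicate numbers are shared between the groups, but same-numbered libraries did not deviate together (r = -0.02, 0.00065 and -0.01), and with the replicate block 0 genes passed, with 465 higher and 451 lower at an unadjusted p under 0.05. Of 148 named genes 0 changed direction over 2495 alternative values. These genes had an unadjusted p under 0.05 in the same libraries, and many were named for separate groups. A change of direction could therefore hardly occur among them. DESeq2 called 83 of them. Of 540 alternative medians of 60 lists and families, 100 moved by more than the spread. The causes were not tested. Depth limits genes with few counts, and with 3 libraries a group the spread between libraries limits these tests.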
